A study of Mus musculus with 9 samples.

Results

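The genes of cholesterol and fatty acid synthesis were followed across 9 cultures of differentiated mouse embryonic stem cells. The set holds 32 named genes that are known targets or regulators of the sterol regulatory element binding proteins (SREBPs), and all 32 were found by symbol among the 24736 genes measured. They were placed in 5 groups by role, of which 7 genes act in the mevalonate pathway, 11 between squalene and cholesterol, 5 in the control of SREBPs, 1 in sterol transport and 8 in the synthesis of fatty acids. The lowest mean of any of them was 809 normalised counts (expected counts divided by the library's DESeq2 size factor), and all 32 entered every test.

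Cholesterol is built from acetyl-CoA by way of mevalonate, farnesyl diphosphate, squalene and lanosterol, and fatty acids are built from the same precursor by carboxylation, chain extension and desaturation. SREBPs are transcription factors held in the endoplasmic reticulum with the escort protein SCAP. When sterols are low, SCAP carries them to the Golgi, where proteases release the active part, and when sterols are high, INSIG proteins keep the complex in place. SREBP2, encoded by Srebf2, is known mainly for cholesterol genes and SREBP1, encoded by Srebf1, mainly for fatty acid genes.

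RNA was measured in CEpiLCs (caudal epiblast-like cells), a culture model of the progenitor pool at the tail end of the embryo. Stem cells were grown on feeder fibroblasts in serum and LIF, separated from the feeders by their adherence to plastic, and differentiated in serum-free N2B27 medium with bFGF at 10 ng per ml and 5 uM LGK974, which blocks WNT secretion. The GSK3 inhibitor CHIR99021, which activates WNT signalling, was present for the final day, and all cultures were collected at 72 h (day 3). The 3 genotypes were wild type (WT, the XY line HM1 TetON, from which the study's lines were derived), Cdx1/2/4-/- (CdxKO) and T/Bra-/- (T/BraKO), each with 3 biological replicates numbered 1 to 3 and all given the same experiment label. No label named a second line of any genotype, and what a replicate number stands for was not given in the sources used here.

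Libraries held 25124337 to 34705355 expected counts. The ribosomal RNA gene Rn45s took 1.69% to 4.21% of counts in the 3 replicate 1 libraries and 0.343% to 0.992% in the other 6. Of the targeted genes, T had 1777 to 2894 normalised counts in T/BraKO and 10900 to 14760 in WT, and Cdx4 had 1.25 to 1.88 in CdxKO and 60 to 161 in WT. Cdx2 had 706 to 1625 in CdxKO and 2699 to 6106 in WT, and Cdx1 had 193 to 320 and 444 to 626, so no group overlapped with WT for the gene it lacks. Summed over 14 caudal epiblast markers, the level was 1666 to 2715 TPM (transcript abundance scaled within each library and corrected for transcript length), and none of the 14 was under 1 TPM in all libraries. The 14 include the targeted genes and Pou5f1, which alone had 690 to 1450 TPM. In CdxKO against WT, DESeq2 at an adjusted p of at most 0.05 called 0 of the 14 higher and 5 lower (0.335% and 0.358% of all genes). In T/BraKO against WT it called 2 higher and 3 lower (0.148% and 0.937%). Hprt had 3590 to 4138 normalised counts in T/BraKO and 16.8 to 28.1 in the other 6 libraries, and the Y-linked gene Ddx3y was at 0 in the 3 CdxKO libraries alone. The lines thus differed in more than the targeted genes, so the mutation and the line cannot be told apart in any genotype comparison below, and in bulk RNA fewer cells of a type and less RNA per cell cannot be told apart either.

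Promoter sequence was available from RefSeq (GRCm38.p6) for 25 of the 32 genes, as windows from 250 bases before to 50 after a transcription start, with more than 1 window for 5 of them. The exact letters of a classical sterol regulatory element, TCACNCCAC (N any base, either strand), were in a window of 1 of the 25, Hmgcs1, and in 1.44% of the 27025 genes with windows. CCAAT, the letters bound by NF-Y, a known partner of SREBPs, was found for 20 of 25 genes (80%) against 41.1% of all genes, and GGGCGG, the letters bound by Sp1, for 21 of 25 (84%) against 38.2%, both on either strand. A match is a description of the letters and no evidence of binding. Windows were not available for Fdps, Fdft1, Sqle, Stard4, Scd1, Scd2 and Fads1.

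The bases before the annotated gene start are printed for 5 genes on which the results turn: Hmgcs1, Idi1, Lss and Insig1, which were higher in replicate 2 than in replicate 1, and Hsd17b7, which differed between genotypes. Capitals mark CCAAT or its complement ATTGG and, in Hmgcs1, the sterol regulatory element. The printed stretch of Hmgcs1 lies at chr13:119690101-119690350 (plus strand), that of Idi1 at chr13:8885356-8885605 (plus), of Lss at chr10:76531355-76531564 (plus), of Insig1 at chr5:28071162-28071411 (plus) and of Hsd17b7 at chr1:169969243-169969455 (minus).
Hmgcs1: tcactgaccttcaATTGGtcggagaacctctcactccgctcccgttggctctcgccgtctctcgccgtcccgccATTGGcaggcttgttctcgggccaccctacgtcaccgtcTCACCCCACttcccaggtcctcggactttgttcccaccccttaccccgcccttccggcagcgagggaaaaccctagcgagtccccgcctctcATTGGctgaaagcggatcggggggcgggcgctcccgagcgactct
Idi1: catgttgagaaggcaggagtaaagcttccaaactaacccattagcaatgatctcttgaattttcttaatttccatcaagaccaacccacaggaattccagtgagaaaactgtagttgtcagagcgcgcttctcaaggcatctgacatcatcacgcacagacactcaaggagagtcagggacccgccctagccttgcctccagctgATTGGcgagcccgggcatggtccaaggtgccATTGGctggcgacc
Lss: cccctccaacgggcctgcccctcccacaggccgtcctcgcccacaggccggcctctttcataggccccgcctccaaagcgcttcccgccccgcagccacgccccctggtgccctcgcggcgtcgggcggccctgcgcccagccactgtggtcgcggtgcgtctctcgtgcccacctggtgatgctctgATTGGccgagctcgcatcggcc
Insig1: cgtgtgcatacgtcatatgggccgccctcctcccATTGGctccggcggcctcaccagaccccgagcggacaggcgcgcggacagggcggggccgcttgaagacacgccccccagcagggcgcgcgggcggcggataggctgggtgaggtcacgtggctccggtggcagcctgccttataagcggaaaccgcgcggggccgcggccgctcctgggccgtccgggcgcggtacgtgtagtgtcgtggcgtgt
Hsd17b7: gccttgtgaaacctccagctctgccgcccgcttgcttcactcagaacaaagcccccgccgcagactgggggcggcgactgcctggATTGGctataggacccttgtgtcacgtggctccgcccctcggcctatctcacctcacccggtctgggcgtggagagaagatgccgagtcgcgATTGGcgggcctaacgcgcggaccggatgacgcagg
All 5 stretches contain ATTGG, Hmgcs1 holding it 3 times and Insig1 and Lss once, and Hmgcs1 alone among them contains the sterol regulatory element.

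In level per transcript length, the set spanned from Insig2 with a mean of 24 TPM to Scd2, the stearoyl-CoA desaturase known for neural and embryonic tissue, with a mean of 2010 TPM and a range of 1714 to 2389. In the mevalonate group the most abundant gene was Hmgcs1, the cytosolic HMG-CoA synthase (mean 647 TPM, range 455 to 918), and the least abundant was Mvk, mevalonate kinase (mean 40.9, range 36.2 to 48.5). Between squalene and cholesterol these were Msmo1, a methylsterol oxidase (mean 403, range 269 to 503), and Hsd17b7, a ketosterol reductase (mean 30.4, range 19.2 to 44.1). Among the regulators Srebf2 was the most abundant (mean 184, range 161 to 222) and Insig2 the least (range 19.2 to 29.6). In fatty acid synthesis Scd2 stood far above Fasn, the fatty acid synthase (mean 556, range 441 to 630), and Elovl6, an elongase, was the lowest (mean 81.7, range 69.8 to 94.2). Stard4, a carrier of cholesterol between membranes, had a mean of 91.2 TPM (range 66.7 to 118). The ranges of neighbours in this order often overlapped, as for Fdps (mean 578, range 425 to 693), Fasn and Acly (mean 531, range 453 to 613). Summed over all 32 genes the level was 6825 to 7785 TPM in replicate 1, 7851 to 9727 in replicate 2 and 8173 to 8335 in replicate 3. Expected counts of Acat2, Scd1 and Scd2 were fractional in all 9 libraries and those of Sc5d in 7, so reads were shared with other genes and their levels are uncertain to that extent.

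**Figure D1:**
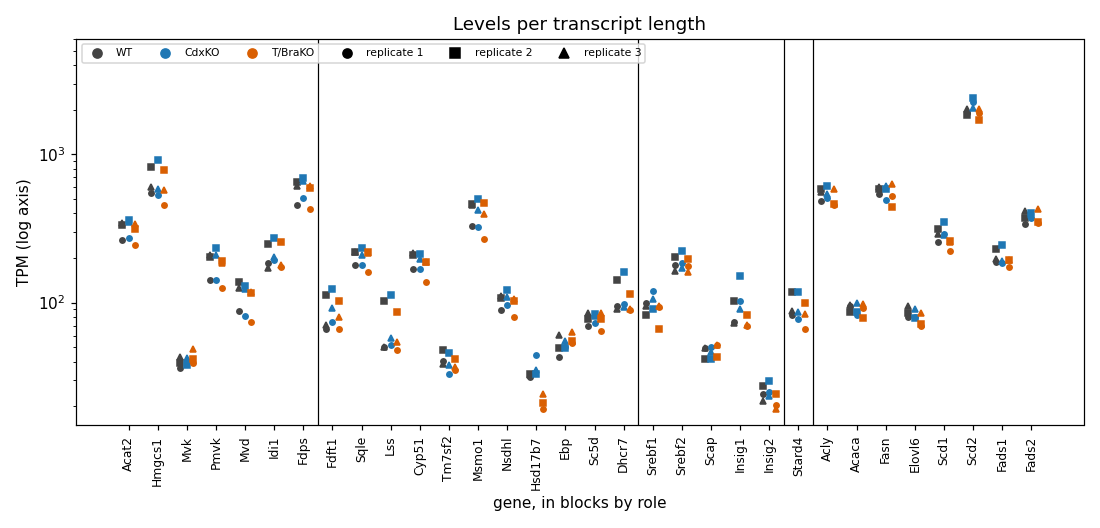
Level of each gene in TPM (log axis), with 1 point per library, colour for genotype and shape for replicate number. Vertical lines separate the mevalonate, squalene to sterol, regulator, sterol transport and fatty acid groups. Scd2 was the highest with a mean of 2010 TPM, and Insig2 the lowest with 24.

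The question put to the replicate numbers was whether RNA levels of the 32 genes differed between numbers, with all 3 genotypes behind each number. For 28 of the 32 genes (87.5%) more of the variance in log2 normalised counts lay between replicate numbers than between genotypes. The same held for 72.4% of the 12316 genes with a mean of at least 50 normalised counts. The median share was 77.9% between numbers and 10.2% between genotypes, against 58.4% and 21.7% over 12316 genes with a mean of at least 50 normalised counts. The exceptions were Hsd17b7, Insig1, Scd1 and Scd2, with 83.9%, 55.3%, 54.1% and 55.2% between genotypes. For 12 of the 32 genes the 3 replicate 1 libraries were the 3 lowest of all 9, against 3.26% of the 12316 genes. These were Acat2, Hmgcs1, Pmvk, Mvd, Fdps, Sqle, Cyp51, Msmo1, Nsdhl, Sc5d, Stard4 and Fads1. The 3 replicate 2 libraries were the 3 highest for 8 genes (13.3% of all), namely Hmgcs1, Idi1, Fdft1, Lss, Tm7sf2, Dhcr7, Srebf2 and Stard4, and the 3 lowest for Srebf1 and Scap (15.1% of all). The replicate 3 libraries were the 3 highest for Mvk, Ebp, Sc5d, Acaca, Fasn and Elovl6 (10.3% of all) and the 3 lowest for Srebf2 (9.2% of all).

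**Figure D2:**
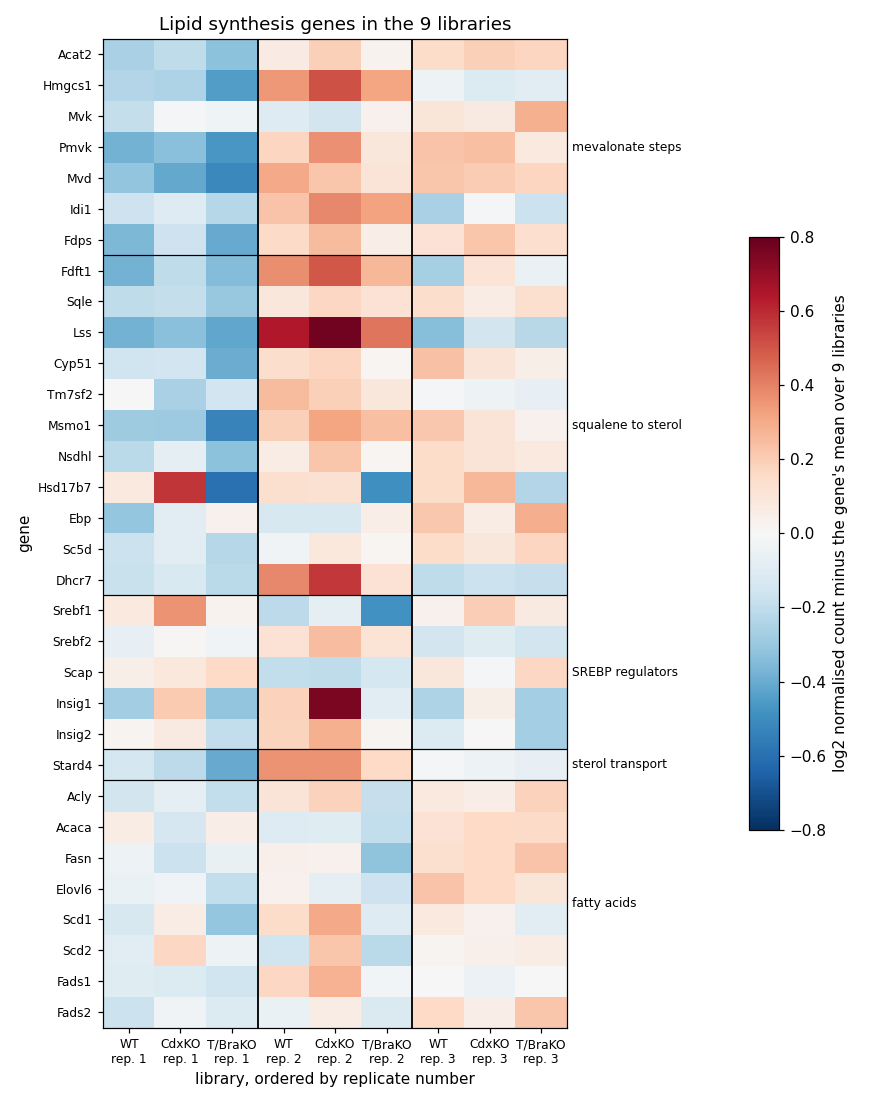
Log2 normalised count of each gene minus its mean over the 9 libraries, with columns ordered by replicate number and rows in blocks by role. Most sterol genes are lowest in the replicate 1 columns, while Lss, Hmgcs1, Fdft1 and Dhcr7 are highest in the replicate 2 columns. Hsd17b7 is lowest in the 3 T/BraKO columns.

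Replicate numbers were compared by DESeq2 with genotype as a term, so each number was represented by 3 libraries, 1 per genotype. Between replicate 1 and replicate 2, 21 of the 32 genes were lower and 2 were higher in replicate 1 at an adjusted p of at most 0.05. Of all 14215 genes tested 30.4% were called, 13.8% as lower and 16.6% as higher, and among the 6811 genes at least as abundant as the lowest of the 32 the lower share was 14.3%. The median log2 fold change was -0.28 over the 32 genes and 0.01 over all genes. Between replicate 1 and replicate 3, 17 genes were lower and 0 higher in replicate 1 (17.2% of all genes called, 8.03% as lower), with a median of -0.23. No gene was higher by edgeR either, and 1 was higher at an unadjusted p under 0.05. Between replicate 3 and replicate 2, 8 were higher and 11 lower in replicate 3 (41.9% of all genes called, 21.8% as higher and 20.1% as lower), shares closer to the background. Over all genes edgeR called 36.9% between replicates 1 and 2 (19.3% as higher and 17.6% as lower), 20.7% between replicates 1 and 3 (11.2% and 9.56%) and 50.9% between replicates 3 and 2 (25.2% and 25.6%). These 3 comparisons share libraries and are not independent of each other. Without T/BraKO replicate 3 the 17 became 11, and without WT replicate 3, T/BraKO replicate 2 or T/BraKO replicate 3 the 8 became 5.

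In the mevalonate group, 6 of 7 genes were lower in replicate 1 than in replicate 2 and 5 of 7 were lower than in replicate 3. Hmgcs1, which makes HMG-CoA, had 26973, 26679 and 23233 normalised counts in replicate 1 of WT, CdxKO and T/BraKO, 40380, 45181 and 39491 in replicate 2, and 30793, 29444 and 29753 in replicate 3. The 3 numbers did not overlap, replicate 1 being lowest and replicate 2 highest in each genotype. Its log2 fold change was -0.70 (SE 0.06) between replicates 1 and 2, with a DESeq2 adjusted p of 2.39e-30, and -0.23 (SE 0.06) between replicates 1 and 3, with a DESeq2 adjusted p of 0.0013. Mvd, the mevalonate diphosphate decarboxylase, had 2129, 1994 and 1853 normalised counts in replicate 1, 3267, 3088 and 2845 in replicate 2, and 3088, 3046 and 2976 in replicate 3, again in the order WT, CdxKO, T/BraKO. Replicate 1 lay below the other 6 libraries, whose values overlapped (log2 fold change -0.62 against replicate 2 and -0.61 against replicate 3, SE 0.06 for both). Pmvk, the phosphomevalonate kinase, showed the same order, with 1922 to 2105 in replicate 1 and 2807 to 3428 in the other 6 (-0.61 and -0.58, SE 0.07). Fdps, which makes farnesyl diphosphate, had 7372 to 8678 in replicate 1 and 10105 to 11580 in the other 6 (-0.46 and -0.47, SE 0.05). Acat2, a thiolase that joins acetyl-CoA units, had 7209 to 7871 against 9218 to 10337 (-0.36 and -0.43, SE 0.05). Idi1, the isopentenyl diphosphate isomerase, followed another order, with 9780 to 10857 in replicate 2 and 6962 to 8277 in the other 6 libraries, and differed from replicate 2 in both replicate 1 (-0.48, SE 0.06) and replicate 3 (-0.46, SE 0.06). Mvk was called only as higher in replicate 3 than in replicate 2 (log2 fold change 0.22, SE 0.09, DESeq2 adjusted p 0.029), with 1020 to 1180 and 876 to 991 normalised counts.

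Between squalene and cholesterol, 9 of 11 genes were lower in replicate 1 than in replicate 2 and 7 of 11 were lower than in replicate 3. The largest difference of the whole set was in Lss, the lanosterol synthase that closes the sterol rings, which had 4519, 4666 and 4403 normalised counts in replicate 1 of WT, CdxKO and T/BraKO, 9170, 10061 and 7918 in replicate 2, and 4647, 5310 and 5033 in replicate 3. Replicate 2 was clear of the other 6 libraries, while replicates 1 and 3 overlapped. The log2 fold change was -0.99 (SE 0.07, DESeq2 adjusted p 1.17e-45) for replicate 1 and -0.85 (SE 0.07, DESeq2 adjusted p 2.16e-34) for replicate 3, each against replicate 2. Dhcr7, which catalyses the last step to cholesterol in a main branch of the pathway, had 3624 to 3866 in replicate 1, 4549 to 6225 in replicate 2 and 3651 to 3731 in replicate 3 (-0.53 and -0.55 against replicate 2, SE 0.08). Fdft1, the squalene synthase, had 3464 to 3905, 5395 to 6357 and 3745 to 4855 in replicates 1, 2 and 3 (-0.69 and -0.45 against replicate 2, SE 0.07). Replicate 2 was again the highest number in each genotype for both genes. Msmo1 had 6946 to 8263 in replicate 1 and 10265 to 12498 in the other 6 libraries (-0.62 against replicate 2 and -0.48 against replicate 3, SE 0.06). For Sqle, the squalene epoxidase, the values were 6363 to 6891 and 8186 to 8823 (-0.36 and -0.34, SE 0.06), and for Cyp51, the lanosterol demethylase, they were 8743 to 10372 and 11622 to 13542 (-0.34 and -0.36, SE 0.05). Nsdhl, a sterol dehydrogenase, had 2526 to 2996 against 3208 to 3688 (-0.31 and -0.32, SE 0.07). In these 4 genes no replicate 1 library reached any of the other 6. Smaller differences were called in Tm7sf2, a sterol reductase (-0.31 for replicate 1 and -0.22 for replicate 3 against replicate 2, SE 0.09), and in Sc5d, a sterol desaturase (-0.19 against replicate 2 and -0.30 against replicate 3, SE 0.07). Ebp, a sterol isomerase, was lower in replicate 1 than in replicate 3 (-0.31, SE 0.09) and was not called against replicate 2 (-0.05, SE 0.09). Hsd17b7 was called in none of the replicate comparisons (0.11, -0.03 and 0.14, SE 0.10).

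The regulators did not move as one. Srebf2 had 11454, 12066 and 11763 normalised counts in replicate 1 of WT, CdxKO and T/BraKO, 12996, 14182 and 12889 in replicate 2, and 10824, 11187 and 10793 in replicate 3. Replicate 2 was highest and replicate 3 lowest with no overlap (log2 fold change -0.18 for replicate 1 and -0.29 for replicate 3 against replicate 2, SE 0.05, DESeq2 adjusted p 0.00133 and 3.82e-08). In Srebf1 replicate 2 was instead the lowest number, with 6013, 7315 and 5828 in replicate 1, 4923, 5434 and 4070 in replicate 2, and 5841, 6550 and 5982 in replicate 3. All 3 replicate 2 libraries were below the other 6, while replicates 1 and 3 overlapped (0.41 and 0.36 against replicate 2, SE 0.07, DESeq2 adjusted p 3.34e-08 and 9.27e-07). Scap, the SREBP escort, likewise had 2441 to 2554 in replicate 2 and 2790 to 3159 in the other 6 (0.28 and 0.26, SE 0.06). Insig1, the sterol-responsive retention factor, was lower in replicates 1 and 3 than in replicate 2 (-0.41 and -0.44, SE 0.08), with 3077 to 5532 in replicate 2 and 2640 to 3798 in the others, ranges that overlapped across genotypes although replicate 2 was highest within each genotype. Its relative Insig2 was lower in replicate 3 than in replicate 2 (-0.29, SE 0.09, DESeq2 adjusted p 0.00354) and was not called in replicate 1 (-0.20, SE 0.09). Stard4 had 5157 to 6209, 7617 to 8758 and 6528 to 6747 in replicates 1, 2 and 3, ranges that did not overlap (-0.54 and -0.33 against replicate 2, SE 0.06).

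Between replicates 1 and 2 the median log2 fold change was -0.05 in the 8 genes of fatty acid synthesis, beside -0.48 in the mevalonate group and -0.34 between squalene and cholesterol. Between replicates 3 and 2 the medians were 0.14, -0.01 and -0.01, with 5 of 8, 3 of 7 and 5 of 11 genes called. Of all genes 41.9% were called in that comparison, and 54.3% of the 6811 genes at least as abundant as the lowest of the set. Beside these shares the counts of all 3 groups lie near the background. Differences between these groups were not tested. Of the 8 fatty acid genes, 3 were lower in replicate 1 than in replicate 2, namely Acly, the citrate lyase that supplies acetyl-CoA (-0.18, SE 0.07, DESeq2 adjusted p 0.0498), Scd1 (-0.24, SE 0.06) and the desaturase Fads1 (-0.26, SE 0.06). Fasn had 76845, 70294 and 75967 normalised counts in replicate 1 of WT, CdxKO and T/BraKO, 81309, 81192 and 63334 in replicate 2, and 86534, 88264 and 92723 in replicate 3. It was highest in replicate 3 in each genotype (0.25 against replicate 2, SE 0.08, DESeq2 adjusted p 0.00415), while replicates 1 and 2 overlapped (-0.01, SE 0.08). Acaca, the acetyl-CoA carboxylase that commits carbon to fatty acids, Elovl6 and Fads2, a desaturase of polyunsaturated fatty acids, were also higher in replicate 3 than in replicate 2 (0.27, 0.23 and 0.18, SE 0.06, 0.05 and 0.07). Elovl6, Fads2, Fasn and Acly were lower in replicate 1 than in replicate 3 (-0.25, -0.25, -0.26 and -0.25). Scd2 was called in no replicate comparison (0.06, -0.03 and 0.09, SE 0.07).

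**Figure D3:**
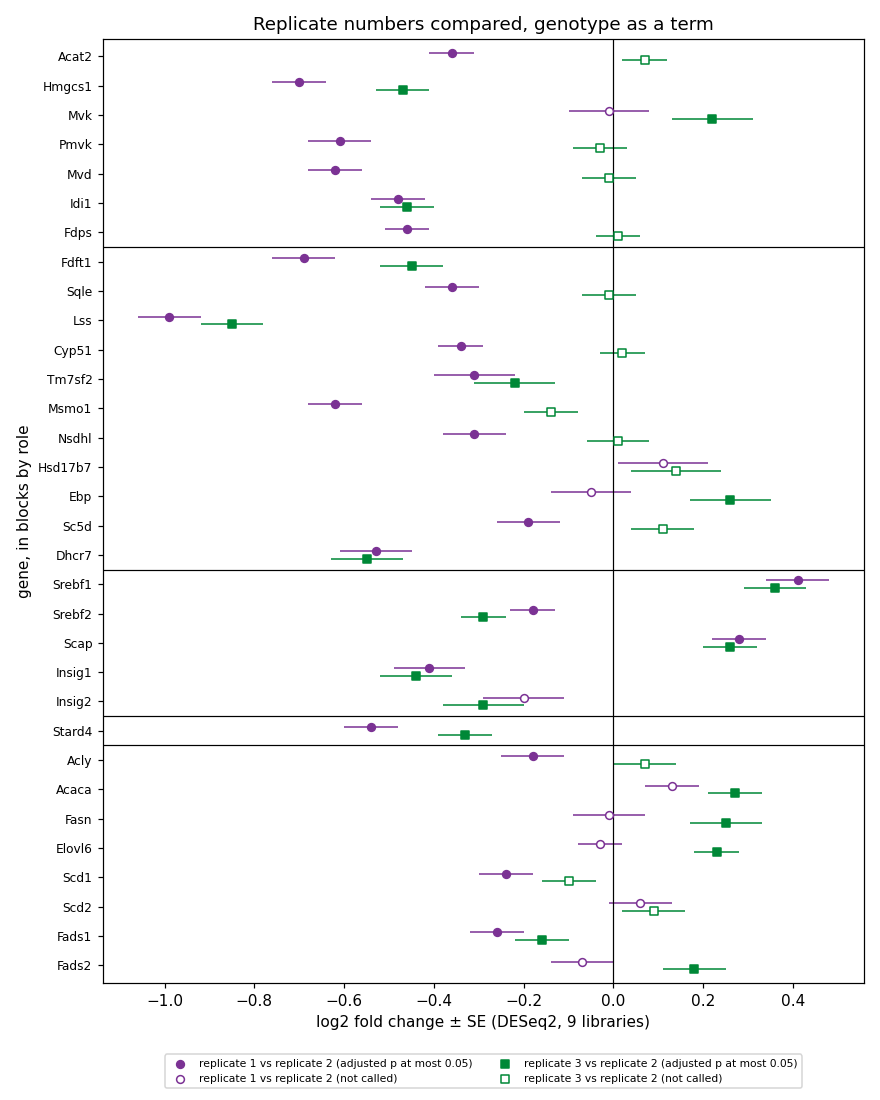
Log2 fold change with its standard error for replicate 1 (circles) and replicate 3 (squares) against replicate 2, from DESeq2 on 9 libraries with genotype as a term. Filled symbols have an adjusted p of at most 0.05. In replicate 1, 21 genes are called to the left of 0 and 2 (Srebf1 and Scap) to the right.

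Related genes outside the set were read from 7 lists of 82 genes. Between replicates 1 and 2 these held 13 genes higher and 22 lower of 77 tested, and the counts per list below are to be read beside the 16.6% higher and 13.8% lower of all genes, since several lie near those shares. Between replicates 1 and 2, 2 of 5 tested genes of other sterol synthesis steps were lower in replicate 1 and 1 was higher. Among those lower was Lbr, a sterol reductase of the nuclear envelope (log2 fold change -0.18, SE 0.05). Of 11 genes of sterol uptake and trafficking 6 were lower and 0 higher by DESeq2 (2 higher at an unadjusted p under 0.05, and 7 lower and 1 higher by edgeR). Npc2, which moves cholesterol out of lysosomes, had 5789, 5667 and 5774 normalised counts in replicate 1 of WT, CdxKO and T/BraKO and 6935, 6666 and 6418 in replicate 2, with no overlap (log2 fold change -0.22, SE 0.06).

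In SREBP processing and turnover, 3 of 13 genes were higher and 1 lower in replicate 1 than in replicate 2, with Rnf145, a sterol-sensing ubiquitin ligase, at 0.54 (SE 0.06) and the SREBP protease gene Mbtps2 at -0.23 (SE 0.08). In other fatty acid synthesis 4 of 19 were higher and 8 lower, including Acacb, a second acetyl-CoA carboxylase (-1.14, SE 0.14), the phosphatidate phosphatase gene Lpin1 (-0.66, SE 0.07) and Aacs, which activates acetoacetate (-0.54, SE 0.07), while Hsd17b12, a reductase of fatty acid elongation, was higher (0.16, SE 0.06). Among 9 tested genes of LXR targets, sterol efflux and storage, 2 were higher and 2 lower. Abca1, the cholesterol exporter and a textbook target of the sterol sensor LXR, had 204, 198 and 249 in replicate 1 of WT, CdxKO and T/BraKO, 49.3, 43.8 and 56.8 in replicate 2, and 86.7, 70.5 and 86.1 in replicate 3. Its level was low, at 0.3 to 1.66 TPM over all libraries. The 3 replicate numbers did not overlap in normalised counts, in the order 1, 3, 2 (2.12, SE 0.23, for replicate 1 against replicate 2, DESeq2 adjusted p 3.14e-18). Apoe, which carries cholesterol out of cells, and Cyp27a1, which makes oxysterol, moved the other way (-0.51, SE 0.08, and -1.03, SE 0.23). Of 11 tested genes of fatty acid oxidation 3 were lower, the carnitine palmitoyltransferase genes Cpt1a (-1.30, SE 0.19) and Cpt1b (-1.04, SE 0.20) and the acyl-CoA dehydrogenase gene Acadl (-0.60, SE 0.07), and 0 were higher (0 also at an unadjusted p under 0.05, and by edgeR). Cpt1a was low, at 1.45 to 4.55 TPM, as was Cpt1b, at 2.33 to 9.79 TPM. Expected counts of Cpt1b were fractional in 7 libraries, so its level is uncertain to that extent. Of 9 genes of the isoprenoid branch, which uses mevalonate products for other ends, 3 were higher, Pdss1 of ubiquinone synthesis (0.41, SE 0.12), the dolichol kinase gene Dolk (0.45, SE 0.14) and the farnesyltransferase subunit gene Fnta (0.20, SE 0.07). None of the 9 was lower by DESeq2, with 1 lower at an unadjusted p under 0.05 and 1, Trit1, lower by edgeR.

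Other properties also differed between replicate numbers. Beside the Rn45s share given above, the summed level of 8 naive pluripotency markers was 23.5 to 34.1 TPM in replicate 1, 47.3 to 63.4 in replicate 2 and 35.8 to 41.9 in replicate 3, and 5 of the 8 were lower in replicate 1 than in replicate 2. Called higher in replicate 1 than in replicate 2 were 4 of 14 caudal epiblast, 4 of 8 paraxial mesoderm and 3 of 7 tested lateral mesoderm markers. So were 3 of 7 tested endoderm, 2 of 3 tested neural and 2 of 8 tested feeder fibroblast markers. Of the 10 proliferation genes 3 were higher and 1 lower. Over all genes 16.6% were higher and 13.8% lower. The 11 endoderm markers summed to 9.47 to 14.6 TPM in replicate 2 and 15 to 33.4 in the others, with 7 of 11 under 1 TPM in every library. The 7 neural markers summed to 13 to 25.2 TPM in replicate 1 and 5.24 to 12.2 in the others, with 4 of 7 under 1 TPM in every library. Feeder fibroblast markers (9 genes) summed to 57.2 to 63.2, 48.8 to 81.5 and 35.2 to 45.6 TPM in replicates 1, 2 and 3, and 8 paraxial mesoderm markers to 51.9 to 149, 28 to 80.7 and 53.9 to 108. No list had a marker at 0 in all libraries. The 10 proliferation genes summed to 2108 to 2222, 2138 to 2178 and 2180 to 2229 TPM. Whether any of these had a part in the differences of the lipid genes was not tested.

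For most of the 32 genes the genotypes differed less than the replicate numbers, Hsd17b7, Insig1, Scd1 and Scd2 being the exceptions given above. The same held for 72.4% of 12316 genes. In T/BraKO against WT, DESeq2 with genotype alone called 1 of the 32 genes lower and 0 higher, where 1.08% of all genes were called (0.937% as lower and 0.148% as higher). At an unadjusted p under 0.05 none of the 32 was higher, and edgeR called 0 in either direction, with 0.385% of all genes called (0.337% as lower and 0.0481% as higher). The 1 gene was Hsd17b7 (GRCm38.p6 chromosome 1, 169949535 to 169969242), a ketosterol reductase of the cholesterol pathway. It had 2034, 2104 and 2135 normalised counts in WT replicates 1, 2 and 3, 2865, 2097 and 2320 in CdxKO, and 1275, 1369 and 1640 in T/BraKO. The 3 T/BraKO libraries were the 3 lowest of all 9 (3.41% of all genes), and no WT library fell below 2034. The log2 fold change was -0.55 (SE 0.15, DESeq2 adjusted p 0.0192), and in the fit blocked on replicate number it was -0.55 (SE 0.10, DESeq2 adjusted p 6.08e-06). The edgeR test without the block gave an adjusted p of 0.173, and without WT replicate 1, 2 or 3 or T/BraKO replicate 1 or 2 the DESeq2 adjusted p was 0.126 to 0.233.

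With the replicate block, 5 of the 32 genes were lower in T/BraKO than in WT and 0 were higher (9.68% of all genes called, 4.85% as lower and 4.83% as higher). By edgeR with the block 4 were lower and 0 higher (9.37% of all genes called, 5.12% as lower and 4.25% as higher), and 1 was higher at an unadjusted DESeq2 p under 0.05. Beside Hsd17b7 these were Scd1 (-0.19, SE 0.06), Cyp51 (-0.18, SE 0.05), Stard4 (-0.17, SE 0.06) and Elovl6 (-0.16, SE 0.05). Scd1 had 17614, 21306 and 20333 normalised counts in WT and 15583, 17950 and 18203 in T/BraKO, so the groups overlapped while each T/BraKO library lay below its WT partner. The same held for Cyp51, with 10333, 12685 and 13542 against 8743, 11622 and 11909. T/BraKO was below WT in all 3 same-numbered pairs for 22.6% of 12316 genes. The 5 became 0 without WT replicate 3, 1 without WT replicate 1 or T/BraKO replicate 1 or 2, 2 without WT replicate 2 and 3 without CdxKO replicate 2. The call of Hsd17b7 itself was lost with the block without WT replicate 3 or T/BraKO replicate 2 (DESeq2 adjusted p 0.113 and 0.117).

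**Figure D4:**
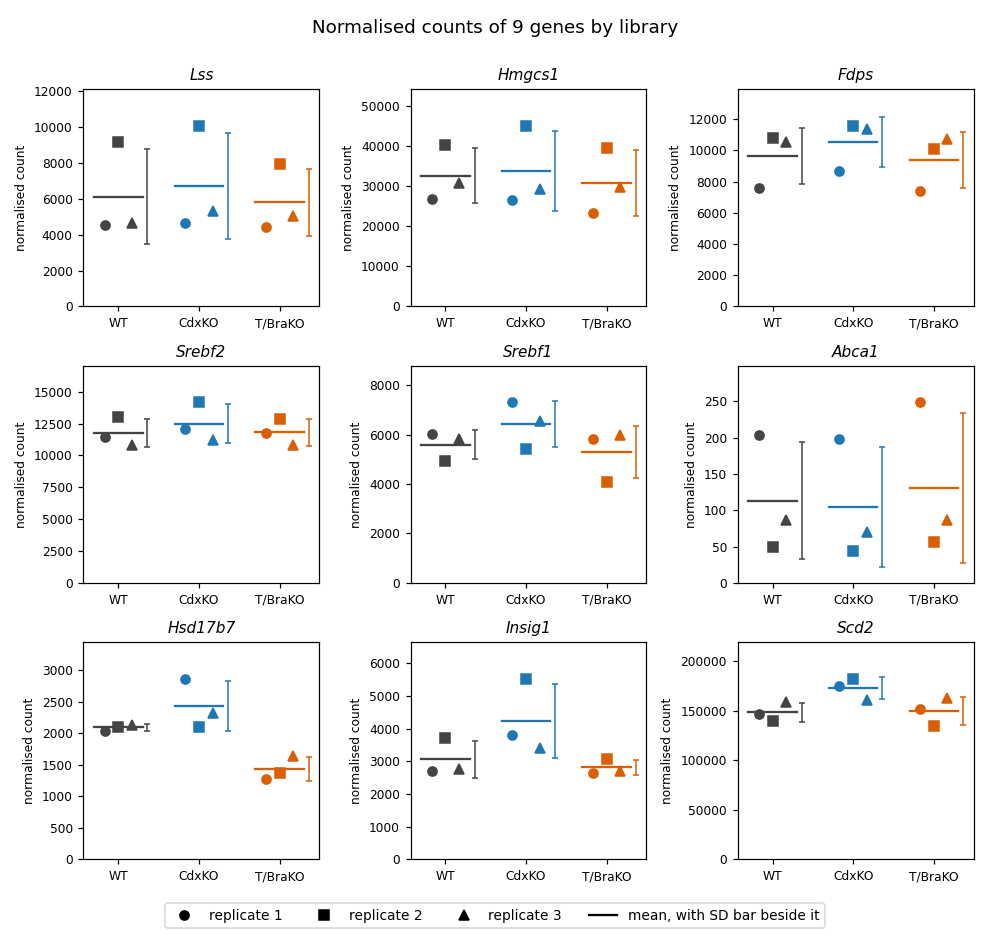
Normalised counts of 9 genes in each library, with shape for replicate number, a line for the mean of each genotype and a bar beside it for the SD (n = 3). Replicate 2 is highest for Lss, Hmgcs1 and Srebf2 and lowest for Srebf1 and Abca1, replicate 1 is lowest for Fdps, and Hsd17b7 is lowest in T/BraKO. Abca1 is not one of the 32 genes and had only 0.3 to 1.66 TPM.

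In CdxKO against WT, DESeq2 with genotype alone called 0 of the 32 genes in either direction, where 0.693% of all genes were called (0.335% as higher and 0.358% as lower). At an unadjusted p under 0.05, 2 were higher (Insig1 and Scd2) and 0 lower, and edgeR called 0, with 0.11% of all genes called (0.0344% as higher and 0.0756% as lower). With the replicate block 3 were higher and 0 lower (5.31% of all genes called, 3.4% as higher and 1.91% as lower), with 0 lower at an unadjusted p under 0.05. By edgeR with the block 1 was higher and 0 lower (4.61% of all genes called, 2.87% as higher and 1.74% as lower). Insig1 (GRCm38.p6 chromosome 5, 28071412 to 28078662) had 2706, 3723 and 2760 normalised counts in WT replicates 1, 2 and 3, 3798, 5532 and 3394 in CdxKO, and 2640, 3077 and 2719 in T/BraKO. Each CdxKO library lay above the same-numbered library of both other genotypes, while the ranges of CdxKO and WT overlapped through replicate 2. In all 3 same-numbered pairs, CdxKO was above WT for 24.1% of 12316 genes and above T/BraKO for 23%. The log2 fold change of Insig1 against WT was 0.47 (SE 0.20, DESeq2 adjusted p 0.655) without the block and 0.46 (SE 0.08, DESeq2 adjusted p 3.43e-06) with it. In the blocked fit Insig1 kept a DESeq2 adjusted p of at most 0.00905 without any 1 library. Scd2 had 147158, 139743 and 158784 in WT and 174834, 182549 and 160519 in CdxKO, groups that did not overlap (0.22, SE 0.07 with the block, DESeq2 adjusted p 0.0333). All libraries of CdxKO were above all of WT for 5.59% of the 12316 genes. Fdft1 was the third (0.22, SE 0.07, DESeq2 adjusted p 0.0202). The 3 became 1 without WT replicate 3, CdxKO replicate 1 or 2 or T/BraKO replicate 1, and 5 without T/BraKO replicate 2.

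The 2 mutants were also compared directly. Without the block, Hsd17b7 was higher in CdxKO than in T/BraKO (log2 fold change 0.76, SE 0.15, DESeq2 adjusted p 1.92e-05) and no other gene of the set was called, where 3.48% of all genes were called (2.52% as higher and 0.962% as lower). At an unadjusted p under 0.05, 4 were higher and 0 lower, and edgeR called 1 higher and 0 lower (1.63% of all genes called, 1.24% as higher and 0.385% as lower). With the block 10 of 32 were higher in CdxKO and 0 were lower, against 14.6% of all genes called (7.75% as higher and 6.9% as lower). By edgeR with the block 9 were higher and 0 lower (18.5% of all genes called, 10.1% as higher and 8.41% as lower), and 1 was lower at an unadjusted DESeq2 p under 0.05. The 10 comprised 2 of 7 genes of the mevalonate group (Pmvk 0.19 and Fdps 0.17), 3 of 11 between squalene and cholesterol (Hsd17b7 0.76, Fdft1 0.18 and Cyp51 0.15), 3 of 5 regulators (Insig1 0.57, Srebf1 0.29 and Insig2 0.26) and 2 of 8 fatty acid genes (Scd1 0.30 and Scd2 0.21). Standard errors were 0.05 to 0.10. Insig1 and Scd1 did not overlap between the mutants, Insig1 with 3394 to 5532 against 2640 to 3077 (DESeq2 adjusted p 4.17e-10 with the block) and Scd1 with 19772 to 23768 against 15583 to 18203 (DESeq2 adjusted p 1.98e-05 with the block). With Hsd17b7 they were the 3 of 32 genes for which all CdxKO libraries lay above all T/BraKO libraries, against 7.89% of 12316 genes. All lay below for 0 of the 32, against 7.58%. Srebf1 had 7315, 5434 and 6550 in CdxKO and 5828, 4070 and 5982 in T/BraKO, overlapping ranges with CdxKO higher within each number (DESeq2 adjusted p 3.11e-04 with the block). Srebf2 was not called (0.08, 95% interval -0.02 to 0.17), nor was Scap (-0.11, SE 0.06). In all, 19 of 32 genes were higher in CdxKO in all 3 same-numbered pairs, against 23% of 12316 genes, and 2, Ebp and Scap, were lower in all 3, against 30%. The median log2 fold change with the block was 0.12 over the 32 genes and -0.01 over all genes. The 10 became 4 without CdxKO replicate 2 or T/BraKO replicate 1 and 5 without CdxKO replicate 1 or T/BraKO replicate 2.

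**Figure D5:**
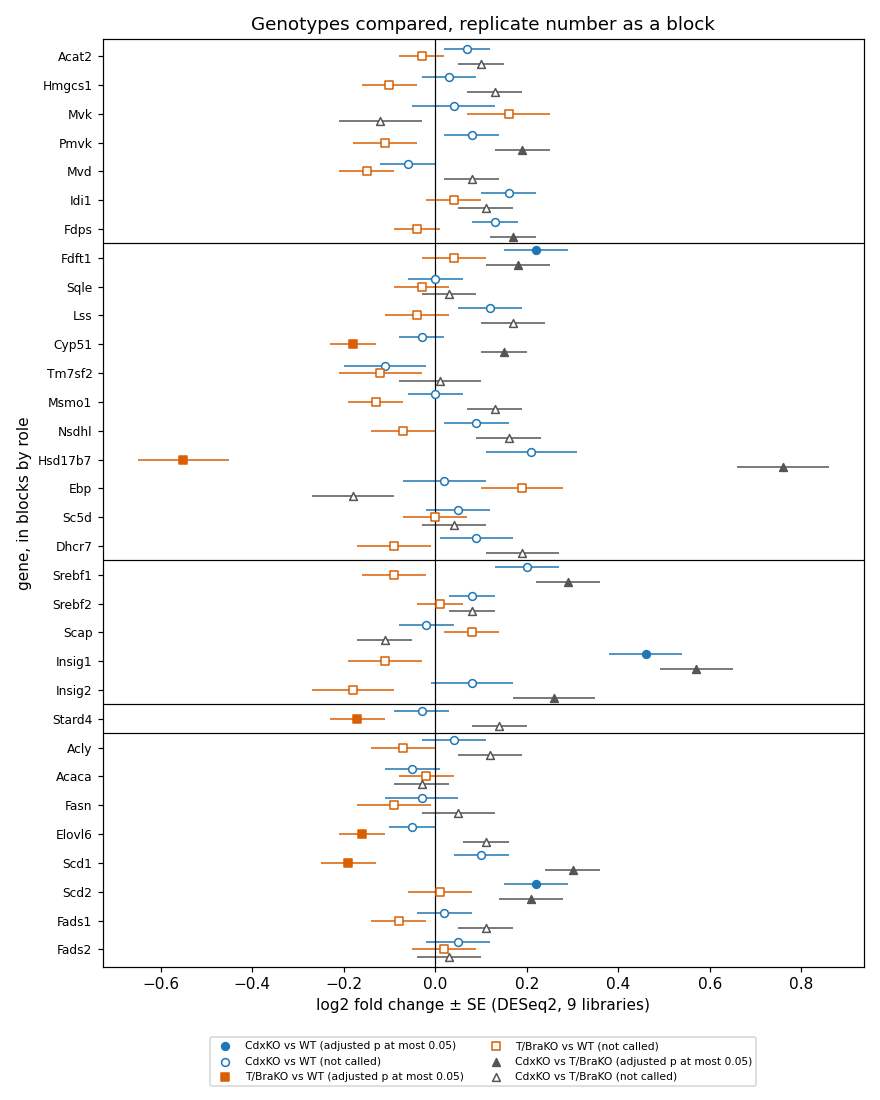
Log2 fold change with its standard error for CdxKO against WT, T/BraKO against WT and CdxKO against T/BraKO, from DESeq2 on 9 libraries with the replicate number as a block. Filled symbols have an adjusted p of at most 0.05. Hsd17b7 (0.76) and Insig1 (0.57) show the largest differences between the mutants, and the 3 comparisons share libraries.

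Of the 82 related genes outside the set, DESeq2 without the block called 0 in CdxKO against WT (2 higher and 0 lower at an unadjusted p under 0.05, and 0 by edgeR) and 0 in T/BraKO against WT (1 higher and 5 lower, and 0 by edgeR). Between the mutants it called 1, Hadhb, a subunit of the enzyme complex of fatty acid oxidation, as higher in CdxKO (0.34, SE 0.11, DESeq2 adjusted p 0.0469). Hadhb had 1558, 1493 and 1383 normalised counts in WT replicates 1, 2 and 3, 1647, 1326 and 1449 in CdxKO, and 1185, 1138 and 1170 in T/BraKO, which lay below the other 6 libraries. By edgeR without the block none of the related genes was called between the mutants. With the block, 4 were higher in CdxKO than in WT, 2 higher and 5 lower in T/BraKO than in WT, and between the mutants CdxKO had 10 higher and 3 lower, of 76, 75 and 77 tested. Beside the shares of all genes in the same fits (3.4% higher, then 4.83% higher and 4.85% lower, then 7.75% higher and 6.9% lower) the counts against WT lie near the background. By edgeR with the block the counts were 3 higher, then 0 higher and 6 lower, then 14 higher and 3 lower. Markers of other cells differed between the mutants as well: without the block 3 of 8 paraxial mesoderm and 4 of 8 lateral and extraembryonic mesoderm markers were higher in CdxKO and 0 lower, their sums being 50.6 to 149 and 63.8 to 74.4 TPM in CdxKO and 28 to 53.9 and 26.8 to 43.4 in T/BraKO. Of 14 caudal epiblast markers 2 were higher and 7 lower (sums 1666 to 2491 against 2207 to 2715 TPM), of 9 feeder fibroblast markers 3 were higher and 1 lower (45.6 to 81.5 against 35.2 to 57.2 TPM), and 1 of 9 tested endoderm markers was higher. The caudal epiblast list includes the targeted genes T, Cdx1, Cdx2 and Cdx4, so its counts and sums partly reflect which genes were targeted. Without the block no naive pluripotency, neural or proliferation gene was called by DESeq2, with 1 proliferation gene higher at an unadjusted p under 0.05. With the block, 1 of 10 proliferation genes was higher and 3 were lower, and 1 of 8 naive pluripotency markers was higher. In that fit 3 of 8 tested endoderm, 4 of 8 paraxial mesoderm and 5 of 7 tested lateral and extraembryonic mesoderm markers were higher. Caudal epiblast markers then had 2 higher and 9 lower, feeder fibroblast markers 4 higher and 1 lower, and 0 of 5 tested neural markers were called. The part of these markers in the lipid gene differences was not tested.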

How the data were processed

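Poly(A) RNA of 9 cultures (3 genotypes, 3 biological replicates each) was read from 1 end of each fragment with strand kept. Trimming by the authors used cutadapt 1.16, and they quantified genes with STAR 2.5.2a and RSEM 1.3.0 against RefSeq genes of mm10. The deposited table holds, per gene and library, expected counts, which RSEM estimates and which can be fractional, together with TPM, which the authors' software scaled for transcript length. Every column was matched to a library by its title, and groups came from the labelled genotype.

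The deposited expected counts were rounded and tested in R 4.3.3 with the Wald test of DESeq2 1.42.0, which the study's methods name (adjusted p of at most 0.05, over all genes, unshrunken log2 fold changes, all 9 libraries). Genotypes were compared with genotype as the only term, and replicate numbers with number and genotype as terms. Intervals of log2 fold changes are the estimate ± 1.96 SE. TPM was used only for levels between genes and for sums over lists, and was not tested.

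Libraries with the same replicate number, which the titles give, deviated from their genotype means together. The correlation over 12316 genes was 0.532 to 0.814 in all 9 same-numbered pairs of libraries and -0.69 to 0.134 in the 18 others, so fits with the number as a block are given where they change a call. Genes are not independent replicates, and why same-numbered libraries resembled each other was not tested.

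Alternatives were TMM factors, dropping genes without 10 counts in 3 or more libraries, edgeR 4.0.16, the replicate block, the 6 libraries compared, a stricter adjusted p, a log2 fold change above 1 and leaving out each library. All 32 genes were accounted for, and values were given for those called in any comparison, for the SREBP regulators and for the most and least abundant gene of each group, and for up to 4 genes per related list with the smallest adjusted p. Some others were named after their values were seen. The genes, lists (other sterol synthesis, sterol uptake and trafficking, SREBP processing, other fatty acid synthesis, LXR targets, efflux and storage, fatty acid oxidation, isoprenoid branch, and the cell markers) and tests were chosen with earlier results of these data known. Some genes of these lists are not reported here.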

Additional observations from a re-analysis of the deposited data

Results flagged for a closer look

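Hsd17b7 differed between the mutants. Against WT its log2 fold change was 0.21 (SE 0.15) in CdxKO and -0.55 (SE 0.15) in T/BraKO, and the direct test of the difference gave 0.76 (SE 0.15, DESeq2 adjusted p 1.92e-05). All 3 CdxKO libraries (2097 to 2865 normalised counts) were above all 3 T/BraKO libraries (1275 to 1640), as was so for 7.89% of 12316 genes. Groups of 3 libraries were too small for a test of single outlying samples.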

How the results depend on the processing

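No result reversed its direction under any alternative. With the replicate block the count of genes higher in CdxKO than in WT went from 0 to 3, lower in T/BraKO than in WT from 1 to 5, and higher in CdxKO than in T/BraKO from 1 to 10, and with edgeR and the block these were 1, 4 and 9. The count lower in T/BraKO was 0 with edgeR without the block and 0 at an adjusted p of at most 0.01. Above an absolute log2 fold change of 1, every count in the 6 comparisons was 0. TMM factors, the filter on low counts and the fits to 6 libraries kept every count within 1.5 times, and so did edgeR apart from the 1 named. The TMM factors moved the median of all genes by at most 0.02 on the log2 scale.

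Leaving out 1 library at a time, without the block, gave 0 to 1 genes lower in T/BraKO than in WT and 1 to 2 higher in CdxKO than in T/BraKO, the second being Insig1 without WT replicate 2 or CdxKO replicate 3. Between replicate numbers it gave 18 to 21 lower and 2 to 3 higher in replicate 1 than in replicate 2, 11 to 19 lower in replicate 1 than in replicate 3, and 5 to 8 higher and 9 to 11 lower in replicate 3 than in replicate 2. With the block, an alternative chosen after seeing the data, it gave 1 to 5 higher in CdxKO than in WT, 0 to 4 lower in T/BraKO than in WT and 4 to 10 higher in CdxKO than in T/BraKO. The cause of these shifts was not tested, and the smaller number of libraries cannot be told apart from the particular library left out. With 3 libraries a group, the blocked standard errors of 0.05 to 0.10 limit which differences could be called.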
